A study of Homo sapiens with 8 samples.

Results

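The effect of an L1CAM shRNA on ribosome-bound messenger RNA was measured in tumour cells that had spent 48 h on a brain slice. The cells were H2030-BrM, a brain-metastatic derivative of the lung adenocarcinoma line H2030. All carried the vector pLVX-EGFP-Rpl10a-IRES-hygro, which adds EGFP to a ribosomal protein, so that an antibody against EGFP could pull down their ribosomes and the RNA on them. Control cells expressed an shRNA against luciferase and knockdown cells an shRNA against L1CAM. The comparison rests on 4 of the 8 libraries of the series, 2 with control shRNA on the slice (shControl_slice) and 2 with L1CAM shRNA on the slice (shL1CAM_slice). The other 4, cells of the same 2 kinds taken from the dish at 0 h (shControl_dish and shL1CAM_dish), are used beside them. The slices were organotypic cultures of mouse brain. A single L1CAM shRNA is named in the labels, so loss of L1CAM and any other effect of that hairpin cannot be told apart. Both libraries of a group are labelled biological replicates, but nothing states that they came from separate cultures, so a p-value here covers only how far these libraries varied, which may be technical. Dish cells grew in RPMI with serum and slice cells were kept on a different medium, so slice and medium cannot be told apart.

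Genes with a mean normalized count of at least 10 over the 8 libraries were taken, which left 13010 of 23368. A gene was kept when both knockdown libraries lay on the same side of both control libraries. This left 6516 genes, or 50.1% of those tested, with 3379 higher (26.0%) and 3137 lower (24.1%). The rule sets no minimum size, and 2234 of the kept genes differed by less than 1.25-fold. Those above 2-fold were 152 higher (1.17%) and 274 lower (2.11%), and 39 genes above 2-fold were not kept because the groups overlapped. At the limit on the mean, CYGB lay just inside at 10.0 and REP15 just outside. At the limit on overlap, TBX19 lay just inside and RAB27A just outside. These counts describe the rule and carry no test.

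L1CAM is a cell adhesion molecule with immunoglobulin and fibronectin domains that guides growing axons in the developing nervous system. It binds other L1CAM molecules, integrins and further partners outside the cell, and ankyrin and ERM proteins inside it, which link it to the spectrin and actin skeleton. In brain metastasis it is known for the spread of tumour cells along existing blood vessels. YAP and TAZ are transcriptional coactivators that respond to adhesion and tension, act through TEAD factors, and are restrained by the LATS kinases of the Hippo pathway. MRTF coactivators act with SRF on actin and muscle-type genes.

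Reads per library ranged from 13486212 to 16734651. Replicate 2 of shL1CAM_slice stood apart from its partner. Between its replicates, the log2 differences of all tested genes had an SD of 0.637 in shL1CAM_slice, against 0.218 in shControl_slice and 0.288 and 0.303 in the control and knockdown groups of the dish. Relative to each gene's mean over the 8 libraries, the 1246 genes with the shortest transcripts had a median log2 deviation of 0.48 in this library, and the 1246 with the longest had -0.67. These figures take a gene's longest transcript, a definition chosen after the median transcript length had been tried. With the median length, the shortest and longest 1246 gave -0.01 and -0.44, so the low values of long genes appeared under both definitions and the high values of short genes under 1. In the other 3 slice libraries these medians ranged from -0.07 to 0.11 with the longest transcript and from 0.01 to 0.12 with the median. List medians below are therefore given for each knockdown library.

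L1CAM itself was lower in both knockdown libraries. Its normalized count was 451 and 438 with control shRNA on the slice and 74.7 and 65.4 with L1CAM shRNA. The log2 fold change was -2.65 ± 0.21 (SE; limma adjusted p = 0.00164). In the dish the counts were 482 and 440 with control shRNA and 126 and 88.3 with L1CAM shRNA, and again the groups did not overlap. By size, L1CAM was the third largest fall among the genes that passed on the slice.

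Of the 13010 genes tested by limma, 20 rose (0.154%) and 64 fell (0.492%) with L1CAM shRNA on the slice at an adjusted p under 0.05. At an unadjusted p under 0.05 there were 2384 (18.3%), of which 1103 were higher and 1281 lower. Over the same 13010 genes edgeR called 24 higher and 62 lower, and DESeq2 121 higher and 218 lower. List counts below at an unadjusted p, by edgeR or by DESeq2 are to be read beside these totals. All 84 genes that passed in limma lay among the kept genes. The count depends on which libraries inform the spread. Without replicate 2 of shL1CAM_slice it was 196 higher (1.51%) and 411 lower (3.16%), and without replicate 1 of that group 3281 higher (25.2%) and 3615 lower (27.8%). Both fits drop the replicate difference of shL1CAM_slice, the widest, from the spread estimate. This favours calls, so calls in them are no check on the 84. List calls without replicate 2 below are to be read beside its shares of all tested genes given here. A fit of the 4 slice libraries alone called 0 genes, with 1126 at an unadjusted p under 0.05. Without any 1 of the 6 other libraries between 4 and 11 genes remained, so the number called rests on every one of these libraries.

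Genes that fell included surface, cytoskeletal and secreted molecules. The deepest fall was that of SCEL (sciellin, a protein of the cornified envelope of stratified epithelium). Its 2 control libraries on the slice held 62 and 52 reads, and its 2 knockdown libraries held 2 reads each. The ratio of the normalized sums was 27.7, with an exact 95% interval of 10.5 to 103 that covers counting error only. In limma its log2 fold change was -4.24 ± 0.44 (adjusted p = 0.00939). The adhesion G protein-coupled receptor GPR64 read 276 and 254 with control shRNA and 37.8 and 22.6 with L1CAM shRNA. Limma put its fall at -3.13 ± 0.27 on the log2 scale (adjusted p = 0.00262). Plasmolipin (PLLP), a membrane protein of myelin and epithelia, read 1117 and 1131 in the controls and 140 and 227 in the knockdown. UNC13A, a priming factor for the release of synaptic vesicles, read 3750 and 3755 against 770 and 515. In each of these genes the higher knockdown library was far below the lower control, with log2 fold changes of -2.65 ± 0.23 for PLLP and -2.57 ± 0.19 for UNC13A (limma adjusted p = 0.00262 and 0.00164).

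IL18, a cytokine of the interleukin-1 family, read 1429 and 1508 in the controls and 245 and 318 in the knockdown. NTN4, a netrin of basement membranes, read 970 and 964 against 227 and 170. Their log2 fold changes were -2.39 ± 0.16 and -2.29 ± 0.18 (limma adjusted p = 0.00164 for both). SORL1, a sorting receptor of the endosome, fell with a wider spread, from 925 and 892 to 304 and 152. The deacetylase HDAC9 read 347 and 337 against 116 and 64.2. The Mediator subunit MED12 read 467 and 476 against 157 and 113. For both genes replicate 2 was the lower of the knockdown libraries. The falls were -2.07 ± 0.28 for SORL1, -1.97 ± 0.26 for HDAC9 and -1.82 ± 0.19 for MED12 (limma adjusted p = 0.0234, 0.0234 and 0.00939). Periplakin (PPL), which links intermediate filaments to desmosomes, read 291 and 360 against 98.7 and 98.8. The integrin subunit ITGA10, a collagen receptor chain, read 195 and 172 against 62.7 and 60.7. The knockdown libraries were nearly equal for both genes, and the falls were -1.70 ± 0.18 and -1.55 ± 0.22 (limma adjusted p = 0.0107 and 0.0286).

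**Figure D1:**
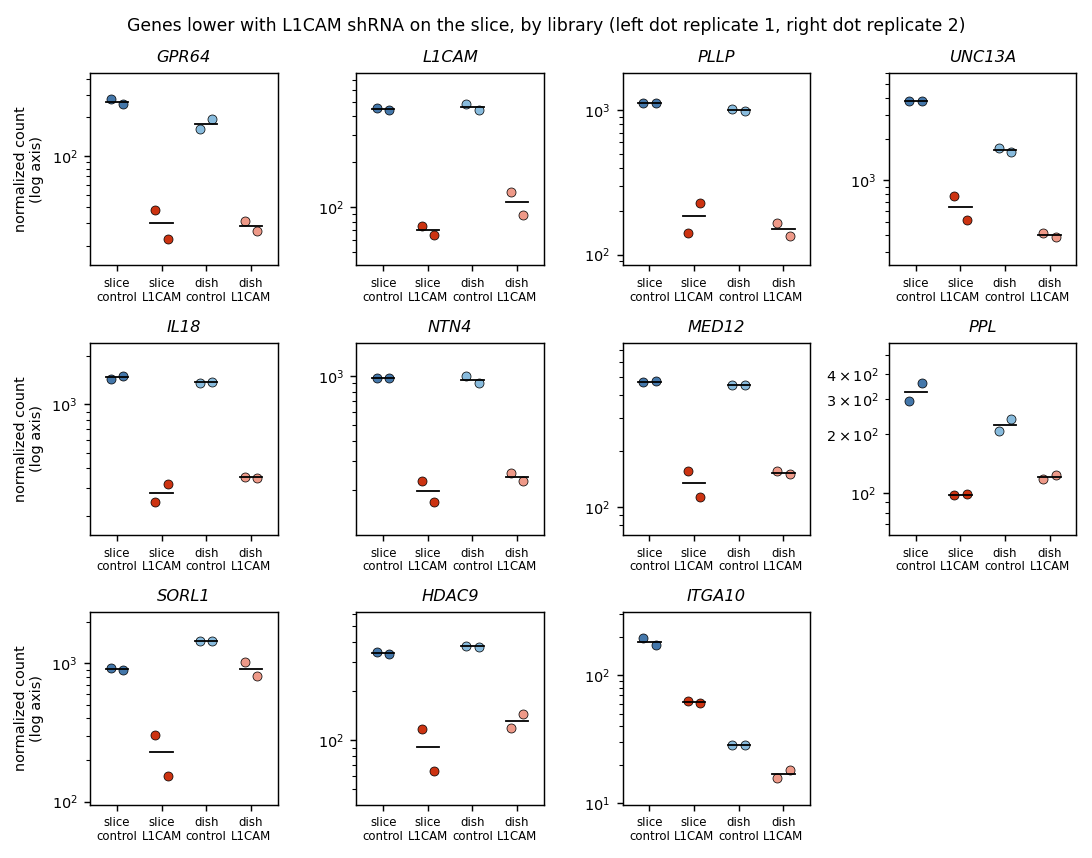
Normalized counts (vertical axes, log scale) of 11 genes that fell with L1CAM shRNA on the slice, with 1 dot per library (replicate 1 left, replicate 2 right) and a bar at the mean of 2, for slice and dish. In all 11 both knockdown libraries lie below both controls on the slice, and the same holds in the dish.

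Fewer genes rose, and their levels were lower, with a median of 55.9 normalized counts over the 8 libraries against 558 for the genes that fell. N-cadherin (CDH2), a cadherin of neural and mesenchymal cells, read 15.3 and 21.4 with control shRNA and 102 and 70.2 with L1CAM shRNA. Its log2 fold change was 2.16 ± 0.28 (limma adjusted p = 0.0218). CXXC4, an inhibitor of Wnt signalling, showed the largest rise, from 5 and 3 reads to 57 and 38. The ratio was 12.2 (exact 95% interval 5.96 to 29.1, counting error only), and limma gave 3.34 ± 0.45 on the log2 scale (adjusted p = 0.0234). The ubiquitin ligase parkin (PARK2) read 23.9 and 21.4 against 78.4 and 88.05. The plasma glutathione peroxidase GPX3 read 27.7 and 22.5 against 78.4 and 85.7. Both stood at more than 3 times the control mean in both knockdown libraries, with log2 fold changes of 1.83 ± 0.29 and 1.68 ± 0.24 (limma adjusted p = 0.0423 and 0.0289).

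The cytokine IL15 read 75.4 and 79.2 against 190 and 194. The homeobox factor MNX1 read 29.6 and 27.8 against 80.2 and 73.8, and the heparan sulfatase SULF2 42.0 and 35.3 against 98.7 and 117. S100A16, a calcium-binding protein, read 105 and 79.2 against 219 and 328. Replicates were close for IL15 and MNX1 and wider for S100A16. Log2 rises were 1.30 ± 0.22 for IL15, 1.39 ± 0.23 for MNX1, 1.45 ± 0.22 for SULF2 and 1.54 ± 0.25 for S100A16 (limma adjusted p between 0.0378 and 0.0438). The Wnt receptor FZD2 rose from 330 and 334 to 570 and 690 (0.92 ± 0.16, adjusted p = 0.0444). The aldo-keto reductase AKR1C3 rose from 309 and 280 to 569 and 744 (1.14 ± 0.19, adjusted p = 0.0427). AKR1C2 rose from 5 and 3 reads to 36 and 31, but the genes of this family are near copies, and reads could have been split between them.

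The stem cell factor SOX2, the membrane protein SUSD2 and the carboxylesterase CES3 had wide gaps between the groups and did not pass. SOX2 read 27.7 and 32.1 against 97.8 and 82.1 (limma adjusted p = 0.0815). SUSD2 read 646 and 643 against 1604 and 2124 (adjusted p = 0.229). CES3 read 41.1 and 46.0 against 106 and 126 (adjusted p = 0.0975). Their control replicates were farther apart in the dish than on the slice. The dish knockdown replicates read 26.6 and 23.1 for SOX2, 318 and 83.3 for SUSD2, and 155 and 92.3 for CES3. The fit shares a single spread estimate across both cultures, and why these genes did not pass was not tested.

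**Figure D2:**
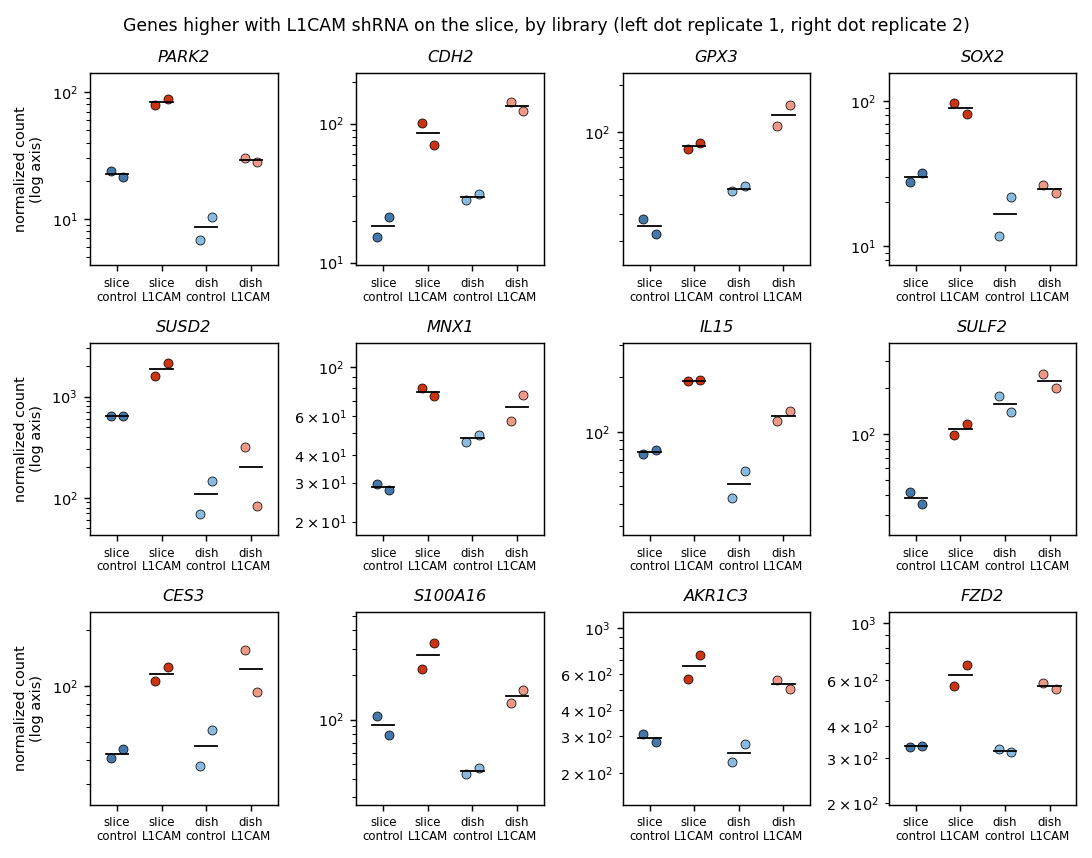
Normalized counts (vertical axes, log scale) of 12 genes that were higher with L1CAM shRNA on the slice, with 1 dot per library (replicate 1 left, replicate 2 right) and a bar at the mean of 2, for slice and dish. SOX2, SUSD2 and CES3 did not pass the test, and the 2 dish knockdown libraries of SUSD2 read 318 and 83.3.

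The dish libraries share no sample with the slice comparison, and they give the same measure in cells that never touched the slice. In the dish, 12 genes rose (0.0922%) and 28 fell (0.215%), 40 in all (0.307%), with 1217 (9.35%) at an unadjusted p under 0.05. Of the genes that were higher by the rule on the slice, 85.9% had a positive log2 fold change in the dish, against 51.3% of all tested genes. Their groups lay apart in the same direction in 53.7% (25.7% of all tested genes) and in the opposite direction in 2.93%. Of the genes that were lower on the slice, 85.8% had a negative value in the dish, against 48.7% of all genes. Their groups lay apart in the same direction in 60.0% (25.6% of all genes) and in the opposite direction in 4.05%. Median effects of the kept genes were smaller in the dish. They were 0.19 in the dish and 0.40 on the slice for the higher genes, and -0.22 and -0.44 for the lower ones. The slice values chose these genes, so a larger size there is partly set by the choice.

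All 84 genes that passed on the slice lay apart in the same direction in the dish. The dish libraries also enter the spread estimate behind those slice calls, which favours genes with close dish replicates. Of the 84, 28 passed in both cultures, 7 higher and 21 lower. They made up 33.3% of the slice calls and 70.0% of the dish calls. Leaving out unnamed loci (symbols with LOC), the shared falls with the widest gap between slice groups were SCEL, GPR64, L1CAM, PLLP and UNC13A, with dish log2 fold changes of -4.22, -2.59, -2.11, -2.74 and -2.05. The shared rises named by the same rule were CXXC4, PCDH10, CDH2, GPX3 and STRA6, with dish values of 3.78, 2.24, 2.12, 1.53 and 1.95. PCDH10 is a protocadherin and STRA6 the receptor for retinol-binding protein. Both were low on the slice, at 4.77 and 5.35 against 20.3 and 26.2 for PCDH10, and 17.2 and 15.0 against 46.1 and 69.0 for STRA6.

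**Figure D3:**
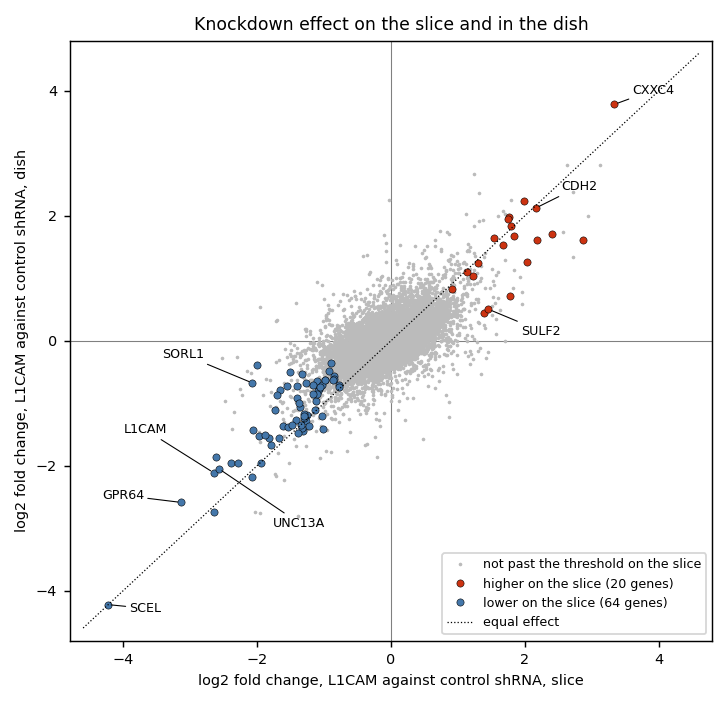
Log2 fold change of L1CAM against control shRNA on the slice (horizontal axis) and in the dish (vertical axis), with 1 point per tested gene and the 84 genes that passed on the slice in colour. Every coloured point has the same sign on both axes, and the dotted line marks equal effects.

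The difference between the slice and dish effects was tested as an interaction. By limma 0 genes passed (0.0%), with 162 (1.25%) at an unadjusted p under 0.05. edgeR and DESeq2 on the recovered reads also called 0, with 157 and 78 at an unadjusted p under 0.05. Leaving out replicate 1 of shL1CAM_slice changed the limma count, and leaving out replicate 2 did not. Both fits drop the replicate difference of that group from the spread estimate, so neither is a check on it. Among the named genes, SORL1 had a slice effect of -2.07 and a dish effect of -0.68, a difference of -1.39 (unadjusted p = 0.00726, limma adjusted p = 0.97). The smallest interaction p-values on the higher side belonged to FAM83A, the protease inhibitor SERPINE2 and the small GTPase RASD1, with differences of 2.04, 0.79 and 1.25. On the lower side they belonged to CORO2A, the interferon-induced IFIT1 and the desaturase FADS1, with -1.25, -1.22 and -0.81. None of the 6 passed (limma adjusted p = 0.97). FAM83A read 266 and 233 against 325 and 366 on the slice, and 30.3 and 26.4 against 12.8 and 6.02 in the dish, so its groups lay apart in opposite directions.

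Members of the L1CAM neighbourhood were then read, beginning with its partners and the proteases that release its outer part. Of 33 tested members, 7 lay above both controls (21.2% beside 26.0% of all tested genes) and 13 below (39.4% beside 24.1%). Limma called L1CAM and no other member, while edgeR and DESeq2 each called 1 higher and 1 lower. The calls were 4 higher and 2 lower without replicate 2 of shL1CAM_slice. The median log2 fold change was -0.28, but 0.06 in replicate 1 and -0.51 in replicate 2, and it was -0.12 with the trend on the longest transcript removed and -0.26 with that on the median transcript removed. CD24, a surface glycoprotein, read 22.9 and 6.42 against 80.2 and 76.1 (limma adjusted p = 0.0732), and its reads can be shared with near-identical copies. The L1-binding contactin CNTN1 read 25.8 and 28.9 against 61.8 and 39.3 (adjusted p = 0.21). The endocytic adaptor NUMB read 1803 and 1827 against 1406 and 983 (adjusted p = 0.163).

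Integrins and the proteins that link them to actin came next. Of 30 tested members, 14 lay below both controls (46.7% beside 24.1% of all tested genes) and 3 above, and the median was -0.35, with -0.26 in replicate 1 and -0.50 in replicate 2. Limma and edgeR called 1 lower, which was ITGA10 in limma, and DESeq2 called 4 lower. With replicate 2 of shL1CAM_slice left out, 1 was called higher and 5 lower. The collagen receptor subunit ITGA2 read 779 and 782 against 402 and 165 (limma adjusted p = 0.103), and the scaffold paxillin (PXN) 2720 and 2692 against 1880 and 1831 (adjusted p = 0.147). ITGB1, the shared beta chain that also binds L1CAM, read 11887 and 11407 against 13378 and 5439, so the knockdown libraries lay on either side of the controls. The integrin-linked kinase ILK read 1750 and 1873 against 1570 and 2160, also on either side. Among 17 laminins and basement membrane genes, 8 lay below (47.1% beside 24.1% of all tested genes) and 2 above. The median was -0.07, made of -0.05 in replicate 1 and -0.34 in replicate 2. It was 0.18 with the longest-transcript trend removed and -0.03 with the median-transcript trend removed. With replicate 2 left out, 1 was called lower and 0 higher. The laminin chain LAMB3 fell from 1029 and 1162 to 389 and 447 (-1.39 ± 0.21, limma adjusted p = 0.0331), and the collagen chain COL4A2 read 140 and 170 against 307 and 324 (adjusted p = 0.151).

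For the Hippo pathway and the targets of YAP and TAZ, limma called 0 genes. Of 22 core members, 12 lay below both controls (54.5% beside 24.1% of all tested genes) and 0 above (beside 26.0%). The median was -0.45, made of -0.08 in replicate 1 and -0.86 in replicate 2. At an unadjusted p under 0.05 there were 7 lower and 0 higher, and edgeR and DESeq2 each called 0. Leaving out replicate 2 of shL1CAM_slice gave 1 call higher and 0 lower. The kinase LATS1 shows the split, at 546 and 511 against 447 in replicate 1 and 77.3 in replicate 2. YAP1 read 11300 and 11959 against 12093 and 5472, and TAZ (WWTR1) 5034 and 5050 against 5760 and 3600. For both genes the groups overlapped, and without replicate 2 both log2 fold changes were above 0 (0.06 and 0.19).

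Of 30 YAP/TAZ targets, 17 lay below both controls (56.7% beside 24.1% of all tested genes) and 2 above, with a median of -0.38, made of -0.13 in replicate 1 and -0.60 in replicate 2. At an unadjusted p under 0.05 there were 11 lower and 1 higher, edgeR called 0, and DESeq2 called 2 lower. Without replicate 2 of shL1CAM_slice, 3 were called lower and 0 higher. The surface nucleotidase NT5E read 5324 and 5103 against 3378 and 2690 (limma adjusted p = 0.062). The EGFR ligand amphiregulin (AREG) read 145 and 119 against 47.0 and 55.9 (adjusted p = 0.0689). Neither passed, though both knockdown libraries lay below both controls. CTGF, a secreted matricellular protein, read 1772 and 1633 against 1303 and 1180 on the slice (-0.46 ± 0.13, limma adjusted p = 0.171), and 8065 and 8092 against 5233 and 5053 in the dish. CYR61, its close relative, read 1510 and 1481 against 1439 and 1277, a log2 difference of -0.14. ANKRD1, a nuclear ankyrin repeat protein, was low on the slice, at 10.5 and 7.49 against 6.46 and 7.14.

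Among 40 MRTF and SRF targets, 20 lay below both controls (50% beside 24.1% of all tested genes) and 2 above, and the median was close in the 2 knockdown libraries, at -0.25 and -0.22. FHL1, a LIM-domain protein of muscle, was the 1 member that limma called. edgeR also called 1 lower and DESeq2 2 lower, and without replicate 2 of shL1CAM_slice 4 were called lower and 0 higher. FHL1 fell from 1267 and 1282 to 664 and 539 (-1.09 ± 0.15, limma adjusted p = 0.0234). The actin-binding caldesmon (CALD1) read 700 and 648 against 454 and 326 (adjusted p = 0.137). The coactivators MKL1 and MKL2 and the contractile genes MYL9 and TAGLN overlapped between the groups, with log2 differences of -0.18, -0.56, 0.17 and 0.22. SRF read 1180 and 1257 against 1002 and 1052 (adjusted p = 0.374).

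Immediate early genes, which respond within minutes to growth factors, followed. Of 30 tested members, 20 lay below both controls (66.7% beside 24.1% of all tested genes) and 0 above, with medians of -0.26 and -0.31 in the 2 knockdown libraries and a median of -0.31 in the dish. Limma called 0, with 13 lower at an unadjusted p under 0.05, edgeR called 0 and DESeq2 called 1 lower. Without replicate 2 of shL1CAM_slice, 8 were called lower and 0 higher. FOS, a subunit of the AP-1 factor, read 401 and 418 against 227 and 222 (limma adjusted p = 0.0636). EGR1, a zinc finger factor, read 404 and 400 against 252 and 277 (adjusted p = 0.132). Of 21 NF-kB chemokine and feedback genes, 9 lay below (42.9% beside 24.1%) and 1 above, with medians of -0.26 and -0.28. Without replicate 2 of shL1CAM_slice, 3 of them were called lower and 0 higher. The chemokine CCL20 read 119 and 96.3 against 65.5 and 60.7, and IL6 312 and 319 against 193 and 227 (limma adjusted p = 0.163 and 0.175).

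Replication genes lay on the higher side. Of 40 G1/S members, 30 lay above both controls (75.0% beside 26.0% of all tested genes) and 1 below, with medians of 0.24 and 0.27 in the 2 knockdown libraries. Limma called 0, with 15 higher at an unadjusted p under 0.05, edgeR called 0 and DESeq2 called 1 higher. Leaving out replicate 2 of shL1CAM_slice gave 2 calls higher and 0 lower. E2F1, which drives entry into S phase, read 600 and 553 against 799 and 841, and the helicase component GINS2 754 and 751 against 1097 and 1659 (limma adjusted p = 0.161 for both). Of 48 G2/M genes 22 lay above (45.8% beside 26.0%) and 3 below (6.25% beside 24.1%), and the medians split at 0.22 and -0.05. Of 18 chaperones of the endoplasmic reticulum, 11 lay above (61.1% beside 26.0%) and 2 below, with medians of 0.19 and 0.27. Without replicate 2 of shL1CAM_slice, 2 were called higher and 1 lower in the G2/M list, and 2 higher and 0 lower among the chaperones. CRELD2, a chaperone-linked factor, read 621 and 668 against 1086 and 1474 (limma adjusted p = 0.0654). The CDK inhibitor CDKN1A, a p53 target, fell from 1389 and 1449 to 543 and 600 (-1.31 ± 0.16, limma adjusted p = 0.02), and was the 1 call among 18 p53 targets.

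Cytosolic ribosomal proteins showed how far the 2 knockdown libraries differed. Their 70 transcripts had a median of -0.06 in replicate 1 and 0.65 in replicate 2. Of the 70, 11 lay above both controls (15.7% beside 26.0% of all tested genes) and 0 below (beside 24.1%). Limma called 0, with 2 higher at an unadjusted p under 0.05 and 0 calls by edgeR or DESeq2. Oxidative phosphorylation genes split in the same way, with -0.03 and 0.46 over 37 members. Over both libraries the list medians were 0.30 and 0.19. They were 0.11 and 0.07 with the longest-transcript trend removed, and 0.27 and 0.21 with the median-transcript trend removed. Among glycolysis and hypoxia genes, 7 of 27 lay above and 7 below (25.9% each, beside 26.0% and 24.1% of all tested genes). NDRG1, a stress-induced gene, fell from 2077 and 2072 to 822 and 856 (-1.31 ± 0.19, limma adjusted p = 0.0267).

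The other lists held few calls. Their counts above and below both controls are to be read beside 26.0% and 24.1% of all tested genes. Of 12 known mediators of brain metastasis, 3 lay above and 3 below, and the calls were L1CAM and PCDH7. PCDH7, a protocadherin that joins tumour cells and astrocytes, fell from 734 and 839 to 288 and 157 (-1.88 ± 0.26, limma adjusted p = 0.0234). Of 24 TGF-beta and BMP response genes, 6 lay above and 7 below, with CDH2 the 1 call. Of 14 fatty acid synthesis genes, 0 lay above and 7 below, of 22 cholesterol synthesis genes 4 and 7, and of 28 interferon-stimulated genes 7 and 8. The brain metastasis mediators and the interferon-stimulated genes lay near both shares of all tested genes, and the fatty acid synthesis genes near neither. Antigen presentation genes numbered 14, with 4 above and 1 below (28.6% and 7.14%). Limma called 0 in these last 4 lists, with 5, 5, 4 and 0 at an unadjusted p under 0.05 in either direction. edgeR called 0 there and DESeq2 called 2, 0, 2 and 0. Keratins and junction genes had 4 above and 8 below of 20, and secretory airway genes 2 and 4 of 10 (20.0% and 40.0% in each list).

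Markers of other cells were read in the same libraries, since the slice is mouse tissue. S100B of astrocytes, MOG and OLIG2 of oligodendrocytes, and P2RY12, C1QA, C1QB and TREM2 of microglia had 0 reads in all 8 libraries. GFAP and AQP4 of astrocytes reached at most 1 read. Summed levels on the slice were 4223 and 4409 with control shRNA and 4442 and 6360 with L1CAM shRNA for 15 neuronal markers, of which TUBB3 made up most. For 8 astrocyte markers they were 1646 and 1557 against 1566 and 1259, and for 9 oligodendrocyte markers 5394 and 5407 against 5680 and 6445. Within the oligodendrocyte list the means under control and L1CAM shRNA were 1926 and 1217 for MBP, 3436 and 4782 for CNP and 14.2 and 42.0 for OLIG1. The 11 microglial markers summed to 757 and 826 against 529 and 735, nearly all of it CD68. The 10 endothelial and mural markers summed to 172 and 180 against 169 and 255. In the dish, without a slice, the neuronal sums were 3571 and 3476 with control shRNA and 4063 and 3771 with L1CAM shRNA. In the same order the dish sums were 2484, 2295, 2562 and 1969 for astrocyte and 4682, 4339, 4886 and 5069 for oligodendrocyte markers. They were 718, 861, 737 and 483 for microglial and 156, 172, 211 and 169 for endothelial and mural markers. On the slice, limma called 0 of the 19 tested genes of these neuronal, glial and vascular lists. There were 6 at an unadjusted p under 0.05 and 0 calls by edgeR or DESeq2. The part of these markers in the results was not tested. The epithelial markers KRT8 and KRT18 were abundant, at means of 4693 and 4866 with control shRNA, while NKX2-1, the lung lineage factor, reached at most 18 reads and SFTPB and SFTPC of alveolar cells at most 3 and 1. Each library pools the ribosome-bound RNA of many cells, so how many cells hold a marker and how much each holds cannot be told apart.

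Promoter sequence was read for the genes with an entry in RefSeq, which were 10153 of the 13010, over the 250 bases before the start (build GRCh38.p14). Motifs were searched on both strands, as GGAATG or CATTCC for TEAD, TGANTCA for AP-1 and the CArG box of SRF by its usual pattern. The TEAD motif was present in 9.10% of all promoters, in 3 of 49 (6.12%) of the genes that fell and in 1 of 14 (7.14%) of those that rose. The AP-1 motif was present in 3.67% of all, in 3 of 49 (6.12%) and in 1 of 14 (7.14%). The CArG box was in 1.04% of all and in 0 of both sets. Among YAP/TAZ targets 7 of 22 (31.8%) held the TEAD motif, and among MRTF/SRF targets 6 of 36 (16.7%) held the CArG box. The TEAD motif was also in 6 of 36 MRTF/SRF targets (16.7%), and the AP-1 motif was in 0 of 22 early response genes. A match is a description of these letters and no evidence of binding.

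The 4 promoters below were picked after the matches had been seen, to show what was counted, with matches in capitals. SCEL (chr13:77535456-77535705, plus strand) had the deepest fall and holds an AP-1 match. ITGA10 (chr1:145910051-145910300, minus strand) is the integrin subunit that fell and holds 1 TEAD match. CTGF (chr6:131951373-131951622, minus strand) holds 3 TEAD matches and did not pass on the slice. EGR1 (chr5:138465229-138465478, plus strand) holds 2 CArG boxes.
SCEL: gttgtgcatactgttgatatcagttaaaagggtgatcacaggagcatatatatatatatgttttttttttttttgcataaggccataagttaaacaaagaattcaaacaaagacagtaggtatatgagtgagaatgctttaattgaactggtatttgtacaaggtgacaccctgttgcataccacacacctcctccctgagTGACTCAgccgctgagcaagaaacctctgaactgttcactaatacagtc
ITGA10: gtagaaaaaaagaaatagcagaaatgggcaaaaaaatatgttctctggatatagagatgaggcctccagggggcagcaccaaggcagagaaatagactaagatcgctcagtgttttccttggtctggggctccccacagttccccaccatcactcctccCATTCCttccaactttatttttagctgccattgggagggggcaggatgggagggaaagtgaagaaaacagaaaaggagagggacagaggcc
CTGF: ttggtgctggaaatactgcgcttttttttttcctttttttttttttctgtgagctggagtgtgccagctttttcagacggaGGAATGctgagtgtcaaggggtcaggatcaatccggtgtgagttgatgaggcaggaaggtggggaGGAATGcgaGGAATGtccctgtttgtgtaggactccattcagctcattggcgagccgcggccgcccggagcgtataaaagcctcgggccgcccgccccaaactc
EGR1: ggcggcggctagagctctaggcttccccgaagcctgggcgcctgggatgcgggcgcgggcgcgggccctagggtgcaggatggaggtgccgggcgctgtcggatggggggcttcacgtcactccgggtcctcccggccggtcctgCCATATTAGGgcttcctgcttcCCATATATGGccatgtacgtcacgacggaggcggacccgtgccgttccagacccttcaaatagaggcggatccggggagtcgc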

How the data were processed

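Ribosome-bound RNA of 8 libraries was analysed, with 2 libraries in each of 4 groups. Per the labels, a poly-A kit that does not mark strand made the libraries. Per the submitters' processing notes, FastQC 0.11.3, HTSeq 0.5.4, DESeq2 and the builds hg19 and GRCh37 were used, while the aligner and annotation were not given in the sources used here. The deposited signal is a normalized count per gene symbol, and 0 columns were unused. Each library's values were whole multiples of a single step (tolerance 1e-06, largest distance 4.9e-10, 100.0% of values), so the reads were recovered, and 3 reads equal 2.75 to 3.57 normalized counts.

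Genes that averaged 10 or more in the 8 libraries were fitted by limma 3.58.1 (R 4.3.3) on log2 of the value plus a pseudocount of 1. A single fit of 4 group means used eBayes with a trend, two-sided tests, Benjamini-Hochberg adjustment over 13010 genes and a threshold of 0.05. The fit was tried on simulated data with the same spread setting in all 8 libraries, which does not cover the wider spread of shL1CAM_slice. All log2 fold changes are on this scale and understate changes of low genes. Alternatives were other pseudocounts, filters and scalings, a replicate block, library weights, the slice libraries alone, removal of a loess trend on transcript length (GENCODE v29, 95.8% of tested genes), edgeR 4.0.16, DESeq2 1.42.0, and each library left out. The length trend was first run on a gene's median transcript length. The version on the longest transcript was added once that result was known, and list values leaving out shL1CAM_slice replicate 2 were also chosen with the data in view.

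Named genes are L1CAM, the 12 rises and 12 falls with the widest gap between groups among called genes with a slice mean of at least 50 (uncalled genes fill a short list, and symbols that start with LOC, MIR, SNOR or LINC are skipped throughout), the 3 smallest interaction p-values in each direction, 5 rises and 5 falls called in both cultures, up to 4 or 6 members per list with the smallest p, and a panel around YAP, MRTF and ILK. A few genes that this rule names are not reported here. The members and lists were chosen with earlier results of these data known.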

Additional observations from a re-analysis of the deposited data

How the results depend on the processing

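Counts on the slice are given as higher and lower, beside 20 and 64. They were 1 and 14 with no filter, 4 and 36 when genes had to average 50, 0 and 0 with the slice libraries alone, 1 and 47 with library weights, and 121 and 218 by DESeq2. With the length trend removed they were 34 and 76 on the median transcript and 97 and 203 on the longest, so this count depends on how length is defined. The longest transcript was added after the median had been run, as a choice made with the data seen. Of the 80 called genes with a length, 74 and 76 stayed called. Pseudocount 10 gave 28 and 78, TMM 23 and 63, and edgeR 24 and 62. Leaving out 1 library gave 0 to 3281 higher and 4 to 3615 lower, with the lone library assumed to vary like the others. The interaction count was 0 to 4136 on leaving out 1 library. The genes kept by the rule were 10801 to 12117 with 1 knockdown library left out, since 1 library overlaps less easily than a pair. With the replicate block, 20 and 65 genes were called, 75 of the 84 among them. Deviations of same-numbered libraries from their group means had correlations from -0.377 to 0.194. With 2 libraries a group these cannot decide whether the numbers pair the samples, which the labels do not state. L1CAM stayed at -2.65 with the slice libraries alone but did not pass (adjusted p = 0.318). In its other settings the adjusted p ran from 2.3e-21 to 0.0481.

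Some named genes that were not called changed sign, and the cause was not tested. With the longest-transcript trend removed, SOD2 was 0.056, WDR12 0.047, ALDOC -0.10, RGS5 0.061 and ILK -0.13. With the median-transcript trend removed, GJA1 was 0.036 and ILK -0.008. KRT8 was 0.012 by edgeR and 0.0001 by DESeq2. On leaving out 1 library in turn, the log2 fold change ran from -0.064 to 0.21 for IFIT1, -0.037 to 0.74 for HLA-C, -0.49 to 0.25 for KRT18, -0.43 to 0.32 for KRT8, -0.32 to 0.083 for GJA1, -0.29 to 0.43 for ALDOC, -0.035 to 0.69 for ACTA2 and -0.31 to 0.05 for RGS5. The panel ran from -1.09 to 0.057 for YAP1, -0.49 to 0.19 for WWTR1, -0.21 to 0.25 for ILK, -1.18 to 0.061 for MKL2, -1.10 to 0.20 for ITGB1, -0.25 to 0.58 for MYL9 and -0.26 to 0.70 for TAGLN. Of the 29 named genes called besides L1CAM, most were lost on leaving out any 1 library of the other groups. Fits without either shL1CAM_slice replicate are no check on these calls, since they drop the widest replicate difference from the spread estimate.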
